A study of Canis lupus familiaris with 8 samples.

Results

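The miRNAs miR-122, miR-192 and miR-194, which are abundant in the liver, were followed in the serum of 4 Doberman Pinschers with dilated cardiomyopathy (DCM) and of 4 healthy Doberman Pinschers, together with miR-215 and miR-885. They were chosen by name, with earlier results of these data known. Every array name was taken that reads miR-122, miR-192, miR-194, miR-215 or miR-885 once the species prefix is removed, without star names. The rule found 6 of the 1224 miRNA names analysed. Of these, 5 were canine listings (cfa-) and 1 was murine (mmu-miR-215). All dogs were adult and client-owned, and the labels give an age of 7 to 11 years for both groups, while the study's text gives one DCM dog a younger age. The DCM dogs were in the occult stage, before overt heart failure, and were treated with pimobendan, an ACE inhibitor and either sotalol or amiodarone, not given regularly in one of them. No such treatment was described for the control dogs, so that disease and medication cannot be told apart. Blood clotted for at least 20 min before the serum was taken. One serum per dog was hybridized to one array, and the arrays are named by their labels, DoCM5 to DoCM8 for DCM and Con1 to Con4 for controls.

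miRNAs are short RNAs that bind messenger RNAs and lower their translation. miR-122 is made almost only in hepatocytes, where it is the dominant miRNA, and it is released into blood when hepatocytes are damaged. The miR-192 family, miR-192 and miR-215, shares a seed and is expressed in liver, intestine and kidney. miR-194 is transcribed together with miR-192 or with miR-215. miR-885 is another miRNA described as enriched in liver. In dogs, miR-122 in serum is used as a marker of hepatocellular injury, and failure of the right heart can congest the liver. The comparison of DCM with control sera therefore addressed whether these miRNAs were raised in the blood of the DCM dogs. Serum RNA comes from many cells at once, so that the number of releasing cells and the amount released per cell cannot be told apart. In the canine gene table of assembly UU_Cfam_GSD_1.0, the genes of miR-215 and miR-194 were direct neighbours within IARS2, while the gene of miR-192 lay elsewhere, next to EHD1.

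The signal of each feature was background-subtracted by the scanner software. Each name had 40 features per array, 20 for each of 2 probes. Features entered the values if the scanner software called them well above background on 2 or more arrays of either group. By this filter, 438 of the 1224 names had at least 1 kept feature. For each name, the signals of its kept features were averaged and normalized by the vsn model. They are given as glog2, a scale on which a difference of 1 equals a doubling for bright features and more than a doubling for dim ones. Between 10817 and 14000 of the 48960 features per array were well above background and none was saturated. The array labelled DoCM5 stood apart, with the brightest median signal and a median correlation across names of 0.924, against 0.957 to 0.968 for the rest. The study left out a DCM sample that it calls DoCM8, for its expression levels, and describes its signals as intensified. Among the arrays analysed here that description goes with the one labelled DoCM5, so the numbers of the labels may not be those of the study's text. The study describes low correlation for its left-out sample, whereas the array labelled DoCM8 had the highest median correlation, 0.968. Without that sample, the study lists cfa-let-7c as lower in DCM. cfa-let-7c measured 9.26 on DoCM5, against 7.36, 8.06 and 7.52 on DoCM6 to DoCM8 and a control mean of 8.20. Leaving out DoCM8 would raise the DCM mean of 8.05, and leaving out DoCM5 would lower it. These values point to the array labelled DoCM5, although no direct match was possible. All 8 arrays were used, and the differences are also given without either array. The slide carried the DCM arrays in its first row and the controls in its second, and row and group cannot be told apart. Precision throughout is that of 4 arrays per group.

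miR-122 and miR-192 were present in every serum, while the other members lay close to the detection limit. cfa-miR-122 and cfa-miR-192 were well above background with all 40 features on each of the 8 arrays. For cfa-miR-194, 18 features were kept, all from the brighter of its 2 probes. The number of its features well above background was 24, 7, 2 and 9 on DoCM5 to DoCM8 and 17, 2, 19 and 7 on Con1 to Con4. Thus at least 50% of the kept features of cfa-miR-194 were above background on 4 of 8 arrays, 2 of each group. cfa-miR-215 passed this limit on 4 arrays, 1 of the DCM group and 3 of the control group, with 0 features above background on DoCM8 and on Con2. cfa-miR-885 passed it on 7 arrays and missed it on DoCM8, where 7 features were above background. The murine listing mmu-miR-215 had no kept feature, and 1 of its 320 features over the 8 arrays was well above background. The passenger strands of these hairpins, the strands usually degraded, were represented by 5 murine star names (mmu-miR-122*, mmu-miR-192*, mmu-miR-194-1*, mmu-miR-194-2* and mmu-miR-215*). None of them had a kept feature, and 7 of their 1600 features were well above background. For these names the data give only that they were not well above background.

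**Figure D1:**
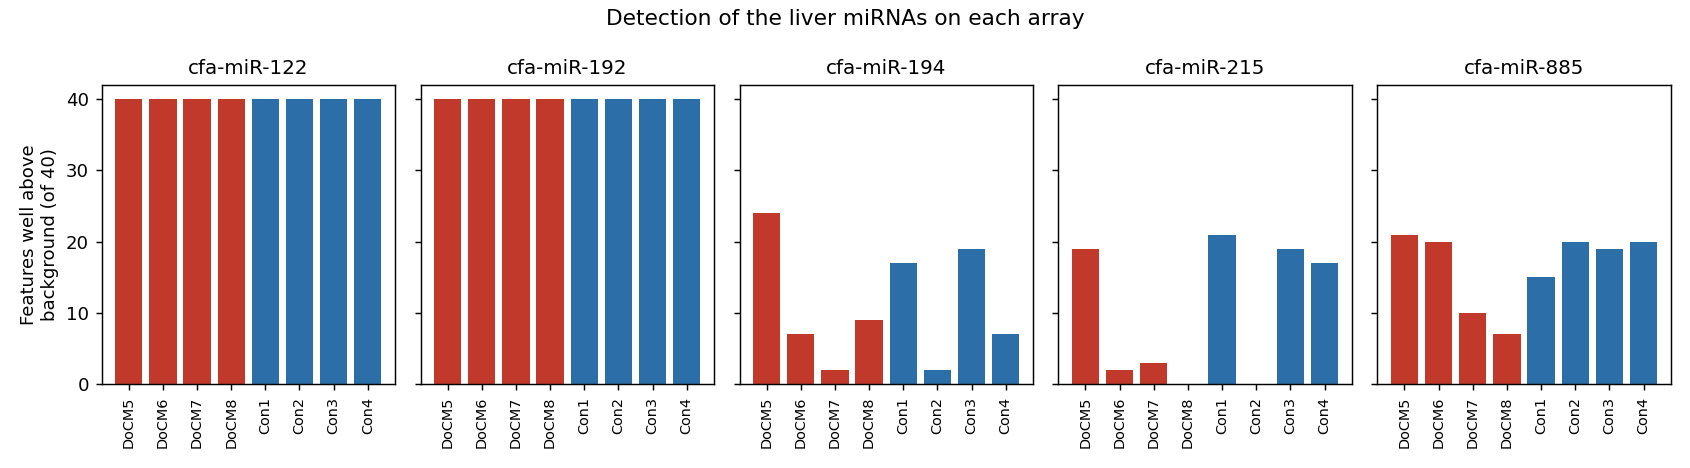
Number of features well above background, of 40 per name, for the 5 canine liver miRNAs (panels) on each array (bars, DCM in red and control in blue). cfa-miR-122 and cfa-miR-192 reach 40 on every array, while cfa-miR-194, cfa-miR-215 and cfa-miR-885 range from 0 to 24.

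miR-122 varied more between sera than any other member. Its normalized signal was 4.92, 7.37, 5.46 and 6.21 on DoCM5 to DoCM8, and 6.25, 7.46, 5.32 and 7.69 on Con1 to Con4. The highest values belonged to Con4, Con2 and DoCM6, and the lowest to DoCM5, Con3 and DoCM7, so that both groups held high and low sera. Before normalization, the mean signal was 65.4, 170.9, 27.5 and 64.9 in the DCM sera, and 92.9, 121.9, 61.7 and 145.3 in the control sera. The normalized range over the 8 sera was 2.77, which equals 6.81-fold. The standard error over the features of one array was between 0.0096 and 0.020, which covers the spot-to-spot spread within an array and not the error of labelling, hybridization or normalization. Its 2 probes followed each other over the arrays with r = 0.995. The SD of miR-122 within groups was 1.08, against a median of 0.46 over the 276 names detected on all 8 arrays. It ranked 4th by this spread among those 276 names.

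The normalized mean of miR-122 was 5.99 ± 1.06 (SD, n = 4) in the DCM group and 6.68 ± 1.10 (SD, n = 4) in the control group. Its mean was therefore nominally lower in DCM than in controls. The difference was -0.69 with a standard error of 0.59 and a 95% interval from -1.99 to 0.60. On the fold scale this interval ran from 0.252 to 1.52 times the control level, so that it included both lower and higher levels. The adjusted p of limma was 0.961 and the p of the exact permutation test was 0.343, two-sided. The difference lay within the spread between dogs of one group. It was -0.77 without DoCM8 and -0.34 without DoCM5. Leaving out DoCM6, the highest serum of the DCM group, gave -1.15 with an unadjusted limma p of 0.0620, and leaving out Con3, the lowest control serum, gave -1.15 as well. The size of the difference thus depended on single sera of both groups, and leaving out any one array did not take it past the limits.

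**Figure D2:**
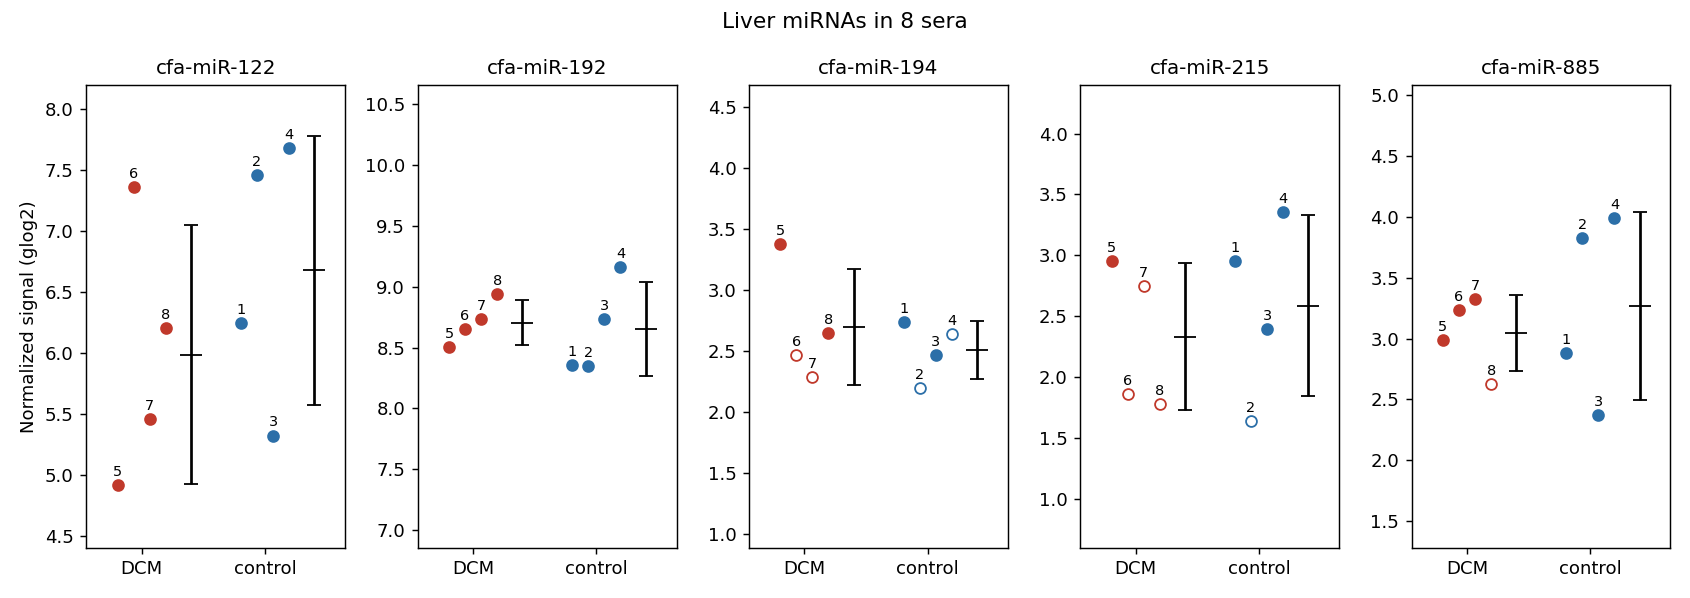
Normalized signal (glog2) of the 5 canine liver miRNAs in the 8 sera, with the same axis span in each panel. Points are single arrays with the number of their label, open where under 50% of the kept features were well above background, and bars are the mean and SD of the group. The groups overlap in all 5 panels, and cfa-miR-122 is the most scattered.

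miR-192 was among the steadier miRNAs of these sera. It measured 8.50, 8.65, 8.73 and 8.94 on DoCM5 to DoCM8, and 8.36, 8.35, 8.74 and 9.16 on Con1 to Con4. The DCM values fell inside the range of the control values. The range over all sera was 0.81, or 1.75-fold. Its SD within groups was 0.30 and ranked 245th of the 276 names detected on all arrays. The group means were 8.71 ± 0.18 in DCM and 8.65 ± 0.38 in controls (SD, n = 4 each). The difference of 0.053 had a standard error of 0.28 and a 95% interval from -0.56 to 0.67, or 0.677 to 1.59 times the control level (limma, adjusted p = 0.990; exact permutation p = 0.8). It was -0.024 without DoCM8 and 0.12 without DoCM5. Its direction therefore depended on which serum was included, while its size stayed small beside the interval.

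**Figure D3:**
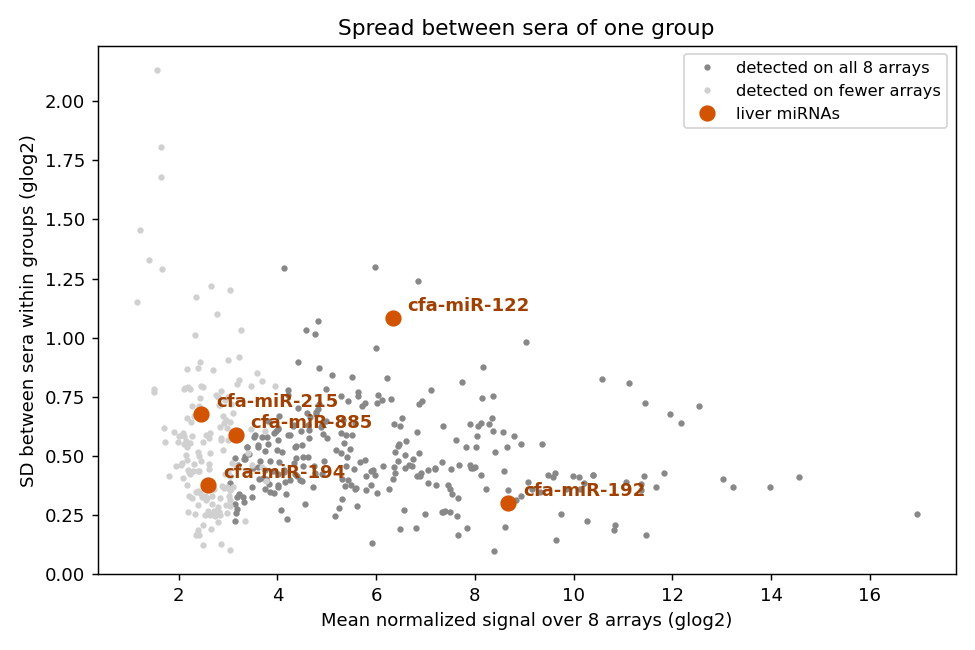
SD between sera within groups (glog2) against the mean normalized signal over the 8 arrays, for the 438 names with a kept feature. Dark points were detected on all 8 arrays, and orange points are the liver miRNAs. cfa-miR-122 lies near the top at 1.08 and cfa-miR-192 near the bottom at 0.30.

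miR-194, the transcription partner of miR-192 and miR-215, was measured near background. Its normalized signal was 3.37, 2.47, 2.28 and 2.65 on DoCM5 to DoCM8, and 2.73, 2.19, 2.47 and 2.64 on Con1 to Con4. DoCM5 lay above every other serum, and the remaining DCM sera fell within the range of the controls. The group means were 2.69 ± 0.48 in DCM and 2.51 ± 0.24 in controls (SD, n = 4 each). The difference was 0.18 with a standard error of 0.30 and a 95% interval from -0.48 to 0.85 (limma, adjusted p = 0.990; exact permutation p = 0.543). Without DoCM5 it was -0.043 and without DoCM8 0.20, so that its direction rested on DoCM5. The miR-194 value followed the median raw signal of the array with r = 0.70 (exact permutation p = 0.0416, adjusted over 10 tests 0.375; Spearman's rho 0.57, p = 0.151). Without DoCM5 and Con3, the arrays farthest from the median brightness, r was 0.59 (exact p = 0.217). Without DoCM5 alone it was 0.38 (exact p = 0.390), and the relation was not past the limit in either case. In the same family of tests, miR-885 ran the other way, with r = -0.59 (exact permutation p = 0.123) and rho = -0.69 (p = 0.0694), as did miR-122, with r = -0.54 (exact permutation p = 0.164) and rho = -0.57 (p = 0.151). Without DoCM5 and Con3, r was -0.45 for miR-885 (exact p = 0.369) and 0.14 for miR-122 (exact p = 0.785). Without DoCM5 alone, r was -0.68 for miR-885 (exact p = 0.0964) and -0.31 for miR-122 (exact p = 0.491). None of these passed the adjusted limit, and the part of array brightness in the members' values was not tested further.

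miR-215, the second member of the miR-192 family, was 2.95, 1.86, 2.75 and 1.78 on DoCM5 to DoCM8, and 2.96, 1.64, 2.39 and 3.36 on Con1 to Con4. Each group thus held sera at both ends of the range. The difference between DCM and control was -0.25 with a standard error of 0.42 and a 95% interval from -1.16 to 0.65 (limma, adjusted p = 0.990; exact permutation p = 0.629). It was -0.46 without DoCM5 and -0.068 without DoCM8. Leaving out Con2 gave -0.57 and leaving out Con4 gave 0.0038, so that its direction depended on Con4.

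miR-885 was 2.99, 3.24, 3.33 and 2.63 on DoCM5 to DoCM8, and 2.88, 3.82, 2.38 and 3.99 on Con1 to Con4. The highest sera were Con4 and Con2, which also had the highest miR-122, and the lowest was Con3. The difference was -0.22 with a standard error of 0.38 and a 95% interval from -1.05 to 0.60 (limma, adjusted p = 0.990; exact permutation p = 0.600). It was -0.20 without DoCM5 and -0.084 without DoCM8. Of the controls, leaving out Con2 gave -0.038, Con3 -0.52 and Con4 0.018, so that the direction depended on Con4. The values of miR-194, miR-215 and miR-885 rest on dim features and may understate differences.

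Of the 5 members measured, 0 passed an unadjusted p under 0.05 with a fold change over 1.5, while 17 of all 438 names did, which is 3.88%. After Benjamini-Hochberg adjustment 0.0% of the names passed, as none of the 438 had an adjusted limma p under 0.05 and 18 had an unadjusted one. With 75th percentile scaling over the names detected on all arrays, or with median scaling, 1 name passed the adjusted limit, and it was no liver miRNA. The groups overlapped for all 5 members. Only 2.74% of all names had groups without overlap, so that overlap does not set the members apart. Of the members, 2 had a difference above 0 and 3 below, with a median of -0.22, against a median of -0.00067 over all names. No difference in a liver miRNA was thus larger than the spread between dogs, and each interval included values on both sides of 0.

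**Figure D4:**
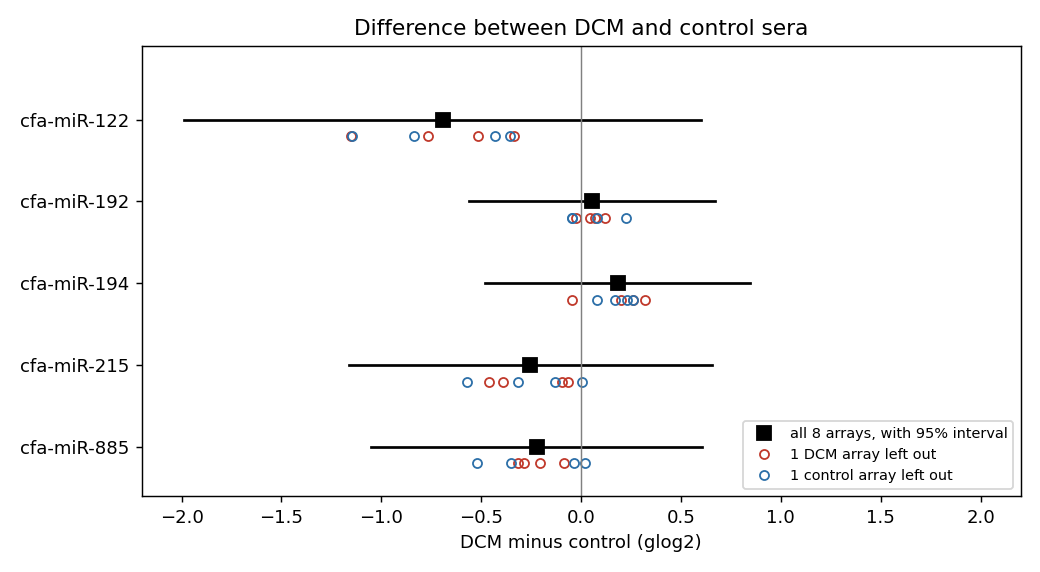
DCM minus control (glog2) for the 5 canine liver miRNAs. Squares are the differences over all 8 arrays with their 95% interval, and open circles are the differences after leaving out 1 DCM (red) or 1 control array (blue). Every interval includes 0, and the circles of cfa-miR-122 run from -1.15 to -0.34.

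The members did not share one pattern over the sera. Of the 10 pairs, miR-122 and miR-885 had the highest correlation, r = 0.70 (exact permutation p = 0.0566, adjusted 0.566) and rho = 0.67 (p = 0.0831, adjusted 0.831). It was 0.69 for the deviations from the group means and 0.66 (exact p = 0.165) without DoCM5 and Con4, the sera farthest from the median of miR-122. miR-192 and miR-194 gave r = -0.050 (exact p = 0.905) and rho = 0.071 (p = 0.882), and r = -0.47 (exact p = 0.361) without Con2 and Con4. miR-122 and miR-192, the members well above background in every serum, gave r = 0.19 (exact p = 0.655) and rho = 0.024 (p = 0.977), and r = -0.48 (exact p = 0.344) without DoCM5 and Con4. No pair passed the adjusted limit. Both miR-122 and miR-885 had a negative r with array brightness, as given above, and the part of this in their correlation was not tested.

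The names most similar to each member were taken from the 345 other names with at least 50% of their features kept. For miR-122, the highest correlation over the 8 arrays was that of mmu-miR-193b, with r = 0.90 and 0.90 without DoCM5. miR-193b is a miRNA of hepatocytes and brown fat. It measured 4.34, 6.01, 5.34 and 5.46 on DoCM5 to DoCM8, and 6.01, 6.28, 5.01 and 6.12 on Con1 to Con4, with DoCM5 and Con3 lowest, as for miR-122. mmu-miR-365-1*, the passenger strand of the hairpin that lies beside miR-193b in the genome, came next with r = 0.83. The listing of the other strand, cfa-miR-365, gave r = -0.42, and 0.080 without DoCM5. cfa-miR-342, mmu-miR-290-5p and mmu-miR-1224 followed with 0.82, 0.79 and 0.74. The canine listing cfa-miR-193b gave r = 0.60, and 0.31 without DoCM5. These correlations describe 8 arrays that share one normalization, and the highest of 345 were picked.

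For miR-885 the most similar name was cfa-miR-375, a miRNA of pancreatic islets and gut endocrine cells, with r = 0.96 and 0.97 without DoCM5. cfa-miR-375 measured 4.00, 4.82, 5.45 and 3.82 on DoCM5 to DoCM8, and 4.48, 5.59, 3.54 and 6.32 on Con1 to Con4. Con4 was highest and Con3 lowest for both. For miR-192 the highest value was 0.75, for mmu-miR-760-3p, and the fifth was 0.60. For miR-215 it was 0.91, for mmu-miR-324-3p, followed by cfa-miR-103, cfa-let-7b, cfa-let-7c and mmu-miR-3107. miR-194 followed cfa-miR-186 with r = 0.98, cfa-miR-361 with 0.95 and cfa-let-7g with 0.94. These values rest partly on DoCM5, since cfa-let-7g gave 0.76 without it, whereas cfa-miR-186 gave 0.94.

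**Figure D5:**
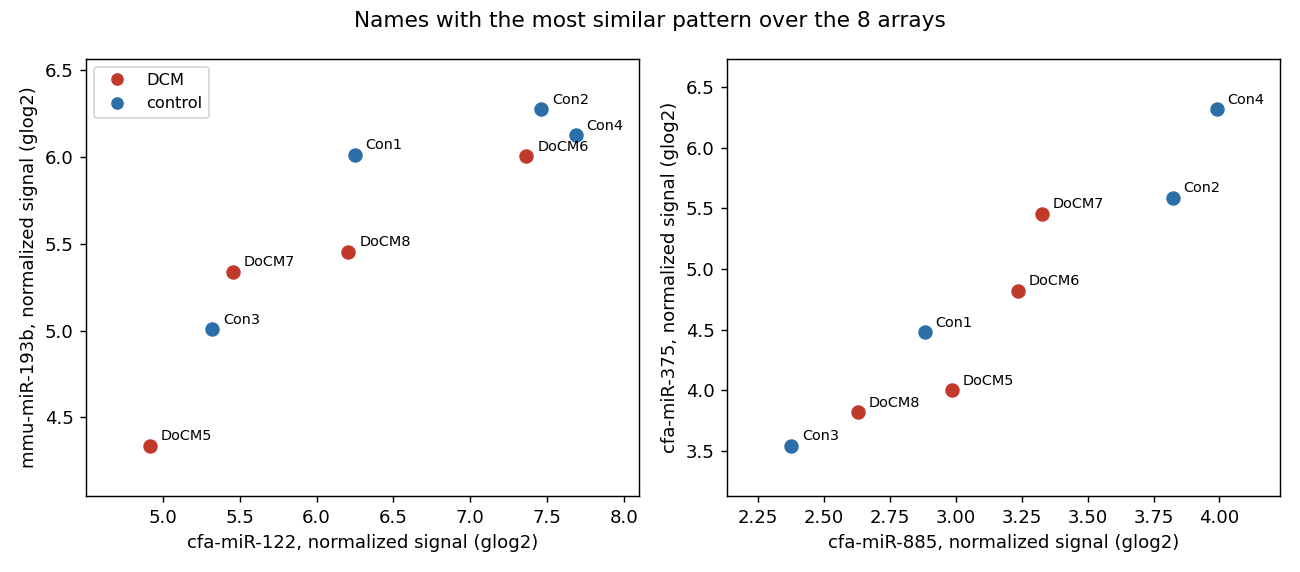
Normalized signal (glog2) of mmu-miR-193b against cfa-miR-122 (left) and of cfa-miR-375 against cfa-miR-885 (right). Each point is one array (DCM red, control blue). Each pair was selected as the highest correlation of its own liver miRNA, r = 0.90 and 0.96, and DCM and control sera are mixed along both.

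The other miRNAs known from hepatocytes gave 12 listings on the array (miR-22, miR-101, miR-101a, miR-148a, miR-193a, miR-193b, miR-365, miR-378 and miR-483). All 12 had a kept feature, and 0 passed the limits in either direction, beside 3.88% of all names. Their median difference was -0.050, with values from -0.57 to 0.64. The brightest were cfa-miR-365, at 8.39 ± 0.71 in DCM and 8.42 ± 0.17 in controls, and cfa-miR-22, at 8.35 ± 0.12 and 8.42 ± 0.076 (SD, n = 4 each). Both had a group difference under 0.1 in size. Their correlation with miR-122 ranged from -0.52 to 0.90 with a median of 0.093, beside a median of 0.080 over all 433 other names. Most of these miRNAs are also made in other tissues.

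Because miR-192, miR-194 and miR-215 are also made in intestine and kidney, miRNAs of these epithelia were examined. Of 9 listings (miR-200a, miR-200b, miR-200c, miR-141, miR-429, miR-203 and miR-204), 5 had a kept feature. Of these 5, 0 passed the limits, beside 3.88% of all names, and the median difference was 0.23. The brightest were cfa-miR-141, at 3.04 ± 0.51 in DCM and 2.95 ± 0.34 in controls, and cfa-miR-203, at 3.19 ± 0.34 and 2.72 ± 0.86 (SD, n = 4 each). cfa-miR-200a, cfa-miR-200c, cfa-miR-204 and cfa-miR-429 had no feature kept on any array. The correlation of these listings with miR-215 over the 8 arrays had a median of 0.57, from 0.13 to 0.90, beside a median of -0.047 over all 433 other names. It was highest for mmu-miR-200b, at 0.90 and 0.89 without DoCM5, and for mmu-miR-200a, at 0.85 and 0.84 without DoCM5. Both listings were dim, with mmu-miR-200a detected on 4 arrays and mmu-miR-200b on 3, like miR-215 itself. The median was 0.15 for miR-192 and 0.31 for miR-194. These are descriptions of 8 arrays, with no test.

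Among miRNAs known from erythrocytes, miR-144 had higher values in the DCM sera, without passing the adjusted limit. Of the 5 erythrocyte listings, 2 passed the unadjusted limits, beside 3.88% of all names, and both were listings of miR-144. They were cfa-miR-144 with a difference of 0.76 (limma, adjusted p = 0.961) and mmu-miR-144 with 0.98 (limma, adjusted p = 0.875). The mean of the 5 was between 10.63 and 10.92 in the DCM sera, and between 9.91 and 10.58 in the control sera. These ranges did not overlap, but 2 of the 5 listings in this mean were of miR-144, and no listing was of miR-486. Of all single names, 2.74% had groups without overlap. cfa-miR-451, the most abundant erythrocyte miRNA, measured 16.97 ± 0.33 in DCM and 16.92 ± 0.14 in controls (SD, n = 4 each). The differences of cfa-miR-451, cfa-miR-16 and cfa-miR-185 were 0.050, 0.051 and 0.097, with standard errors of 0.27, 0.30 and 0.34. The correlations of the 5 liver miRNAs with cfa-miR-451 had an adjusted p of at least 0.375 (exact permutation, 10 tests). For miR-194 this r was -0.65, and 0.11 without DoCM5. With cfa-miR-16, r was 0.88 for miR-194 (0.84 without DoCM5) and 0.66 for miR-215 (0.63). It was 0.29 for miR-192 (0.62), -0.50 for miR-122 (-0.24) and -0.34 for miR-885 (-0.34). The values with cfa-miR-16 carry no test, and the part of blood cell RNA in the members' values was not tested further.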

How the data were processed

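Serum RNA of 4 DCM and 4 healthy Doberman Pinschers was hybridized to 8 one-colour arrays on 1 slide, scanned on 1 day. The deposited scanner output came, per the file headers, from Agilent Feature Extraction 10.7.3.1 and gives an intensity per feature with the background subtracted, without normalization between arrays, plus detection and outlier flags (other columns of the deposited files). The deposited table of the series held the same intensity values.

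Groups were taken from the labels. Control features were not used. Features with an outlier flag on the array concerned were left out of the mean signal, unless all kept features of the name were flagged there. They still counted in the filter and in the numbers of features well above background. The filter on dim features asked for 2 or more arrays of one group well above background. The mean signal per name was calibrated with vsn (own implementation, least trimmed squares quantile 0.9, 5 slices, 7 iterations). The 438 names were fitted together with limma 3.58.1 (R 4.3.3). The limits were a fold change over 1.5 and an unadjusted p under 0.05, and separately a Benjamini-Hochberg adjusted p under 0.05. Exact two-sided permutation tests used all 70 splits of the arrays, or all 40320 pairings for correlations, whose p-values were adjusted over each family of 10. With 4 against 4 arrays the smallest exact p is 0.0286. The small number of arrays limits the precision.

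The members and lists were chosen with earlier results of these data known. Beside the members, the text names their passenger strands, for each member up to 5 names with the highest correlation, the 2 brightest names of a list (by mean level), and names whose values a result turns on, chosen after their values were seen: the canine miR-193b, other members of the lists, and mmu-miR-208a-5p. Alternatives covered the arrays, normalization, signal column, averaging, filter and test. The scripts were tested on simulated data. The planned normexp correction was run on the median signal. The planned comparison of canine with murine listings was not made for the members, since mmu-miR-215 had no kept feature, and other murine listings of the members were not analysed here. Figures were drawn with matplotlib 3.10.9.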

Additional observations from a re-analysis of the deposited data

How the results depend on the processing

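The 5 member differences were recomputed under 25 to 27 alternatives each, and none passed the limits. miR-122 stayed below 0 in all 27, between -1.15 and -0.26, with a smallest unadjusted limma p of 0.0620. The full ranges were -0.047 to 0.35 for miR-192, -0.045 to 0.32 for miR-194, -0.63 to 0.0038 for miR-215 and -0.52 to 0.018 for miR-885. The 0.35 of miR-192 came from 75th percentile scaling over all names, and the -0.63 of miR-215 from array weights (limma, unadjusted p = 0.0968). Leaving out each array in turn gave -1.15 to -0.34 for miR-122, -0.047 to 0.22 for miR-192, -0.043 to 0.32 for miR-194, -0.57 to 0.0038 for miR-215 and -0.52 to 0.018 for miR-885. miR-192 turned to -0.041 when DoCM8 was also left out of the normalization, and miR-194 to -0.045 when DoCM5 was. Under 75th percentile scaling over names detected on all arrays, miR-194 was -0.040, while the median of all names moved to -0.18, so that miR-194 lay 0.14 above that median. The causes were not tested.

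The count of 0 names past the adjusted limit became 1 with 75th percentile scaling over names detected on all arrays (limma, adjusted p = 0.0199) and 1 with median scaling (limma, adjusted p = 0.0124). The 17 of 438 names past the unadjusted limits became 3 with normexp and quantile normalization and 34 with array weights. Filters that let more names in gave 52 of 1224 with no filter and 34 of 987 with a filter of 1 array. Leaving out 1 array gave 11 to 30. Fewer names were past these limits without DoCM8 (11) and more without DoCM6 (30). cfa-miR-194 counted as detected on 8 arrays when 1 feature sufficed and on 2 when nearly all kept features had to be above background.

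The correlation of miR-122 with miR-885 kept its sign in every setting, between 0.66 and 0.83, and passed an unadjusted limit with the same 75th percentile scaling (r = 0.83, exact permutation p = 0.0150). miR-194 with miR-215 and miR-215 with miR-885 also kept their sign, while the other pairs named here turned. Under that scaling, r was 0.20 for miR-122 with miR-194, 0.13 for miR-122 with miR-215, 0.12 for miR-192 with miR-194 and 0.21 for miR-194 with miR-885. Without the 2 farthest arrays, miR-192 gave -0.48 with miR-122, -0.74 with miR-215 and -0.26 with miR-885. Without DoCM5, a choice made after seeing the data, miR-194 gave 0.0093 with miR-122 and 0.34 with miR-192. Each probe on its own, also chosen after seeing the data, gave -0.67 and -0.70 for miR-122 and 0.044 and 0.036 for miR-192. The other members had kept features from 1 probe.

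No paired analysis by replicate number was possible because the labels give the DCM arrays the numbers 5 to 8 and the control arrays 1 to 4. Pairing by position was possible, since each slide column held 1 array of each group. A fit with this column as a block gave miR-122 a difference of -0.69 with a standard error of 0.37 (limma, unadjusted p = 0.0922, adjusted p = 0.963), with 18 names past the limits and no member among them.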

Other observations

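miRNAs of heart and skeletal muscle differed in detection. cfa-miR-133b and cfa-miR-499 were detected on all 8 arrays, cfa-miR-1 on 5 and cfa-miR-206 on 2. Of 7 listings, 4 had a kept feature and 0 passed the limits, beside 3.88% of all names. The median difference was 0.045. The brightest were cfa-miR-133b, at 5.74 ± 0.74 in DCM and 6.19 ± 1.68 in controls, and cfa-miR-499, at 5.73 ± 0.47 and 5.04 ± 0.44 (SD, n = 4 each). cfa-miR-208a and cfa-miR-208b, miRNAs of heart muscle, had no kept feature. A murine listing of the other strand of miR-208a, mmu-miR-208a-5p, was not in the list and was looked up after its values were seen. It was detected on all 8 arrays, with a difference of -0.84 (limma, unadjusted p = 0.0565), and did not pass the adjusted limit. Whether this murine listing read a strand of miR-208a in dog serum was not tested.

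Of 8 leukocyte and platelet listings, 1 passed the unadjusted limits, beside 3.88% of all names. It was mmu-miR-142-3p, with a difference of 1.28 (limma, adjusted p = 0.456). The brightest of this list were mmu-miR-223, at 11.61 ± 0.55 in DCM and 12.06 ± 0.24 in controls, and cfa-miR-223, at 11.23 ± 0.54 and 11.61 ± 0.23 (SD, n = 4 each). The mean of the list lay between 8.77 and 9.17 in DCM sera and between 8.52 and 8.81 in control sera.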
